A study of Homo sapiens with 4 samples.

Results

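The 10 genes described here encode the tropomyosins TPM1, TPM2, TPM3 and TPM4, the smooth-muscle-type actins ACTA2 and ACTG2, and the actin-binding proteins TAGLN, TAGLN2, CALD1 and CNN3. They were listed by name as contractile genes of the kind controlled by MRTF and SRF, with earlier results of these data known. They are 10 of the 23153 genes with at least 1 count, and 9 of them were among the 13801 genes with enough counts for a test. ACTG2 was the member left untested.

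The libraries come from LoVo, an established line of colorectal adenocarcinoma cells in which the receptor tyrosine kinase MET is constitutively phosphorylated. RNA sequencing covered 2 replicates of MET+ cells, labelled as wild-type genotype and GFP control, and 2 replicates of MET-KO cells, in which MET had been disrupted by CRISPR/Cas9. MET-KO cells had been selected with puromycin and picked as single clones, and the sources used here do not say whether both MET-KO libraries derive from 1 clone. A difference caused by loss of MET and a difference between clones therefore cannot be told apart, and the p-values measure only the spread between these samples. The comparison addressed which contractile genes accompany the change in cytoskeletal organization between MET+ and MET-KO cells.

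Tropomyosins are coiled-coil proteins that polymerize head to tail along actin filaments and influence which myosins, crosslinkers and severing proteins reach the filament. Caldesmon, calponins and transgelins bind the same filaments, and several of them are abundant in smooth muscle while also occurring in stress fibers of other cells. Many genes of this machinery are transcribed by SRF, which binds a DNA element called the CArG box, together with the coactivators MRTFA and MRTFB. MRTF proteins are held back by monomeric actin and are released when actin polymerizes.

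The promoter sequences of the members are shown first, because the CArG box is the element that ties such genes to SRF. RefSeq promoter windows on GRCh38.p14, running from 250 bases before to 50 bases after a transcription start, were found for 9 of the 10 members, TAGLN being the one without an entry. An exact CArG box was present in a window of 2 of these 9 genes, TPM4 and ACTG2, compared with 1.6% of the 27305 genes in the same table. Allowing 1 mismatch raised the number of members to 4 of 9, a form found in 22.3% of all genes in the table. These were TPM4, ACTG2, ACTA2, which held 2 such matches in 1 of its windows, and CALD1. The table holds 35116 windows for its 27305 genes. An exact box was in 1.29% of windows, and the form allowing 1 mismatch in 18.9%. The members were listed as genes of the kind controlled by MRTF and SRF, so a share above that of all genes is not independent evidence. A gene with several windows, such as CALD1 with 4, had more places for a match. The CArG boxes of TPM4 and ACTG2 and those of their non-member relatives ACTG1 and CNN2 are given here with 10 flanking bases on each side, 5′ to 3′ on the strand of the gene, with the box in capitals.
TPM4, chr19:16067355-16067384, plus strand: aatcctaggtCCAAATAAGGcgagggctgc
ACTG2, chr2:73892888-73892917, plus strand: gaaaaaaccaCCTTATATGGtaatattgct
ACTG2, chr2:73892925-73892954, plus strand: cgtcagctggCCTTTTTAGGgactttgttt
ACTG1, chr17:81512874-81512903, minus strand: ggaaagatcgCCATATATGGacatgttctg
CNN2, chr19:1026509-1026538, plus strand: cgcctccaggCCTTATAAGGacatttgcgc

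The box began 173 bases before the start in 1 of 3 TPM4 windows, and the others held no exact box. The distance was 110 and 73 bases in ACTG2, 94 in ACTG1 and 89 in CNN2. Which TPM4 start is used in these cells was not measured. The 4 genes shown did not behave alike, since TPM4 and CNN2 were higher in MET-KO cells, ACTG1 was lower and ACTG2 was near 0 counts throughout. They are not the only genes with a box. Among the 30 other MRTF and SRF targets described below, 24 had a window and 8 of these held an exact box. ACTG1 and CNN2 belong to that list, as does SRF, which held 2 boxes. The motif GGAATG, bound by TEAD factors, the DNA-binding partners of YAP1, was searched on both strands because the study followed YAP1. It was present in windows of 3 of the 9 members, compared with 16.7% of all genes and 14% of all windows. Members with several windows had more places for a match, so the share of genes is not a like comparison. The 3 members with the motif were ACTA2, CALD1 and CNN3. They are given here with 12 flanking bases on each side and the motif, or its reverse complement, in capitals.
ACTA2, chr10:88952939-88952968, minus strand: gagcagaccagtGGAATGcagtggaagaga
CALD1, chr7:134779428-134779457, plus strand: gagcatgcctagGGAATGacaggcatctcc
CALD1, chr7:134745413-134745442, plus strand: cagttaagtctgCATTCCgctactggattt
CNN3, chr1:94925894-94925923, minus strand: cctccctccctgCATTCCaagcccatgaca

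These matches are letters in a window and were not measured as binding sites.

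The 4 libraries held 8429142 to 10286552 counts and were scaled by TMM, and levels are given in CPM, the counts scaled to a common library total, as mean ± SD of 2 replicates. The libraries were made with a QuantSeq 3′ kit, which yields 1 fragment per transcript near its 3′ end, so CPM was not divided by transcript length. Levels of different genes are set side by side on that basis. Other differences between genes in how their reads are captured or assigned were not corrected. The targeted gene MET (ENSG00000105976, chromosome 7, 116672390 to 116798386) had 2794 and 3272 counts in the MET+ replicates, against 861 and 965 in the MET-KO replicates, a log2 fold change of -1.96 (adjusted p = 1.49e-18, edgeR quasi-likelihood), in the direction of the labels. The epithelial markers KRT8, KRT18, KRT19, EPCAM, CDH1 and CDX2 were detected in all libraries, whereas CDX1 was at 0 and CEACAM5 was at 392 and 487 counts in MET+ and at 0 in both MET-KO libraries. The epithelial adhesion genes EPCAM and CDH1 both decreased with MET knockout, their log2 fold changes being -1.11 and -0.88 (adjusted p = 2.18e-12 and 2.11e-09, edgeR quasi-likelihood). CDX2 went the other way, with a log2 fold change of 1.04 (adjusted p = 1.93e-10, edgeR quasi-likelihood). Of the 8 tested markers of this list, 5 were called lower and 2 higher, so the markers did not move together. Of the 13801 tested genes, 54.1% passed an adjusted p of 0.05, 27.2% as higher and 26.9% as lower in MET-KO cells, so a call by itself was common. The even split depends on the scaling, since library totals alone gave 4361 higher and 3000 lower genes, against 3755 and 3712 with TMM.

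Among the 9 tested members, 6 were higher in MET-KO cells, TPM2, TPM4, ACTA2, TAGLN, CALD1 and CNN3. TAGLN2 was lower, and TPM1 and TPM3 did not pass the test. The share called was 77.8% of the 9, against 54.1% of all tested genes, and the median log2 fold change was 1.67, against 0.01. For 6 members the lower MET-KO library exceeded the higher MET+ library, a pattern found in 38.5% of tested genes, and for 3 members the order was the opposite, found in 37.1%. TPM2 passed the filter on low counts only through the MET-KO libraries, so that its difference was in part a condition of its being tested. In bulk RNA, more cells expressing a gene and more RNA per cell cannot be told apart. Positions follow GENCODE version 29 (GRCh38).

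**Figure D1:**
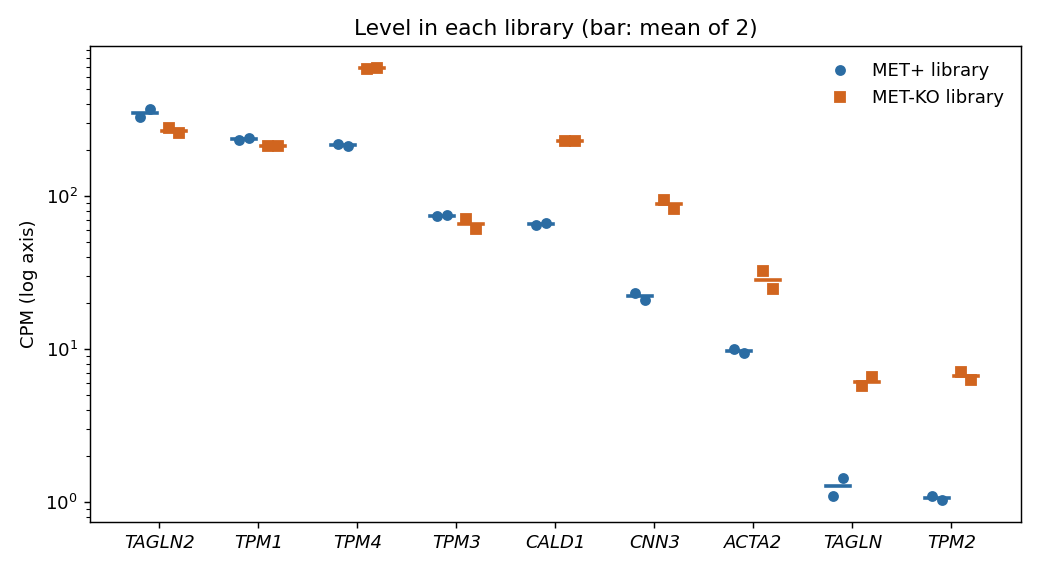
Level of each member in CPM on a log axis, with 1 point per library for MET+ and MET-KO cells and a bar at the mean of 2 replicates. TPM2, TPM4, ACTA2, TAGLN, CALD1 and CNN3 are higher in both MET-KO libraries, whereas TPM1, TPM3 and TAGLN2 lie slightly below in both MET-KO libraries, and ACTG2 is left out because it had 0 counts in both MET+ libraries.

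TPM4, a cytoskeletal tropomyosin of stress fibers, gained more CPM than any other of the 10 genes. TPM4 (ENSG00000167460, chromosome 19, 16067021 to 16103005) had 1816 and 2070 counts in the MET+ replicates, against 6954 and 7516 in the MET-KO replicates. Its level rose from 216.0 ± 4.94 CPM to 687.0 ± 7.26 CPM (SD, n = 2 per group), a 3.18-fold change, so that the replicates within a group differed by far less than the groups. The log2 fold change was 1.67 ± 0.09 (SE, adjusted p = 5.69e-17, edgeR quasi-likelihood). TPM4 was the third most abundant member in MET+ cells, after TAGLN2 and TPM1, and the most abundant in MET-KO cells.

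TPM2 (ENSG00000198467, chromosome 9, 35681992 to 35690121), the beta tropomyosin of muscle and stress fibers, was scarce in both groups. It had 9 and 10 counts in the MET+ replicates, against 72 and 68 in the MET-KO replicates. Its level rose from 1.06 ± 0.0432 CPM to 6.66 ± 0.564 CPM (SD, n = 2 per group), with a log2 fold change of 2.64 ± 0.39 (SE, adjusted p = 4.79e-07, edgeR quasi-likelihood). TPM2 thus had the highest fold change among the tested members and at the same time contributed least to the tropomyosin transcripts.

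TPM1 and TPM3, the remaining tropomyosins, moved little. TPM1 (ENSG00000140416, chromosome 15, 63042632 to 63071915), the alpha tropomyosin, stood at 232.9 and 238.0 CPM in MET+ and at 212.2 and 213.3 CPM in MET-KO libraries. Its log2 fold change was -0.15 ± 0.09 (SE, adjusted p = 0.171, edgeR quasi-likelihood), which missed the threshold although the groups did not overlap. TPM3 (ENSG00000143549, chromosome 1, 154155304 to 154194648), a widely expressed cytoskeletal tropomyosin, stood at 73.6 and 74.8 CPM in MET+ and at 70.3 and 61.2 CPM in MET-KO libraries. Its log2 fold change was -0.18 ± 0.11 (SE, adjusted p = 0.166, edgeR quasi-likelihood). The TPM3 difference was carried mostly by the second MET-KO library, and leaving out 1 library at a time moved it between -0.28 and -0.07.

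Since TPM4 rose while TPM1 and TPM3 did not pass the test, the makeup of the tropomyosin transcripts differed between the groups. The summed level of the 4 genes was 527.0 and 526.3 CPM in MET+ and 971.4 and 972.9 CPM in MET-KO libraries, a ratio of 1.85. TPM4 made up 41.6% and 40.4% of tropomyosin counts in MET+ and 70.2% and 71.1% in MET-KO libraries. The exact binomial 95% intervals were 40.2% to 43.1% and 39.0% to 41.7% in MET+, and 69.3% to 71.1% and 70.3% to 72.0% in MET-KO libraries, and cover counting error only. The TPM4 share was 29.7 percentage points higher in MET-KO cells, with no overlap between the groups.

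TPM1 went from 44.2% and 45.2% of tropomyosin counts to 21.8% and 21.9%, a difference of -22.8 percentage points. TPM3 went from 14.0% and 14.2% to 7.24% and 6.29%, and TPM2 from 0.206% and 0.195% to 0.727% and 0.644%. TPM1 and TPM4 were therefore nearly equal in MET+ cells, with 0.942 and 0.893 TPM4 reads per TPM1 read, whereas MET-KO libraries held 3.21 and 3.25. An exact two-sided permutation test of 2 against 2 libraries gave p = 0.333 for each of the 4 shares, the smallest value that this design allows. The counts are given per gene, and the 4 genes have 8 to 19 annotated coding transcripts each, so the muscle-type and cytoskeletal products of 1 gene were not separated.

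**Figure D2:**
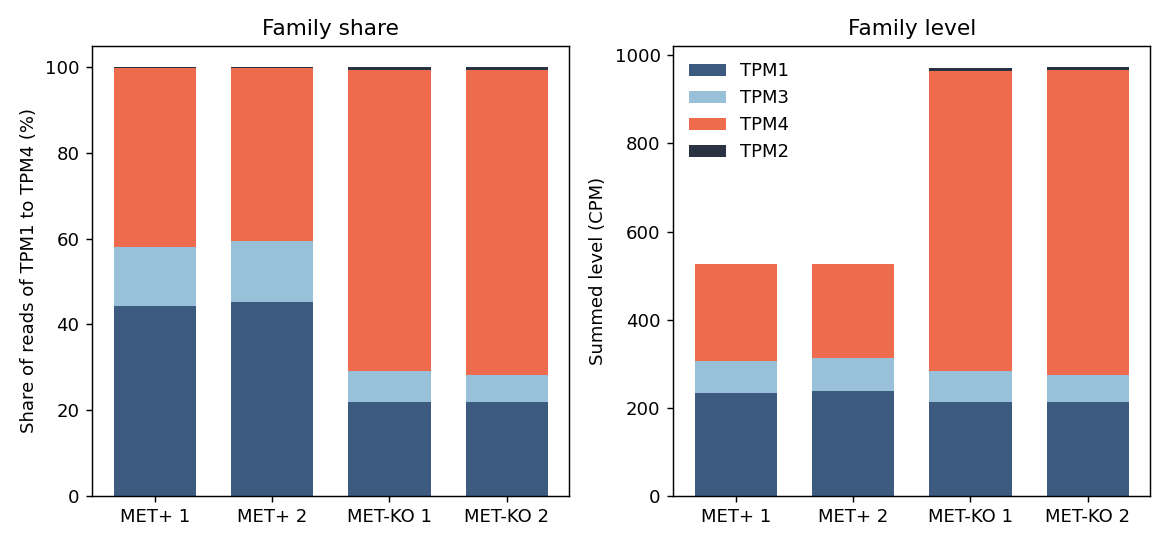
Stacked bars for TPM1, TPM3, TPM4 and TPM2 in each of the 4 libraries, on the left as the share of tropomyosin counts in percent and on the right as the summed level in CPM. TPM4 takes 41.6% and 40.4% in MET+ and 70.2% and 71.1% in MET-KO libraries, and the summed level goes from 527.0 and 526.3 CPM to 971.4 and 972.9 CPM.

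The smooth-muscle actin ACTA2 rose from a low level. ACTA2 (ENSG00000107796, chromosome 10, 88935074 to 88991339), the actin of vascular smooth muscle and myofibroblasts, had 83 and 91 counts in the MET+ replicates, against 329 and 266 in the MET-KO replicates. Its level was 9.69 ± 0.487 CPM without and 28.4 ± 5.49 CPM with the MET knockout (SD, n = 2 per group), a log2 fold change of 1.55 ± 0.18 (SE, adjusted p = 4.31e-09, edgeR quasi-likelihood). The MET-KO libraries were uneven, at 32.3 and 24.5 CPM, but both exceeded the MET+ libraries. ACTG2 (ENSG00000163017, chromosome 2, 73892314 to 73919865), the actin of enteric smooth muscle, had 0 counts in both MET+ replicates against 6 and 1 counts in the MET-KO libraries and was too scarce to test.

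ACTA2 overlaps other genes on the opposite strand, and the strand setting of the counting is not given in the sources used here. FAS, a death receptor gene, shares 380 exonic bases with ACTA2. FAS begins at 88990582 on the plus strand, whereas ACTA2 runs on the minus strand to a 3′ end at 88935074. The shared bases therefore lie at the 5′ ends of both genes as annotated from end to end. All 380 also lie within the last 1000 exonic bases of coding ACTA2 transcripts, for which 2 distinct ends are annotated. FAS had 170 and 162 counts in the MET+ replicates, against 547 and 598 in the MET-KO replicates, a log2 fold change of 1.55 (adjusted p = 5.60e-12, edgeR quasi-likelihood), and STAMBPL1, which overlaps ACTA2 without a shared exonic base, changed by 1.67 (adjusted p = 1.35e-14, edgeR quasi-likelihood). Whether reads of FAS contribute to the ACTA2 counts was not tested.

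Next to the cytoplasmic actins, which carry most actin filaments in epithelial cells, ACTA2 remained a minor transcript. ACTB (beta actin) went from 616 ± 35.8 CPM to 941 ± 26.4 CPM (SD, n = 2 per group), which gave a log2 fold change of 0.61 (adjusted p = 8.73e-07, edgeR quasi-likelihood). ACTG1 (gamma actin) went from 5656 ± 67.0 CPM to 3658 ± 390 CPM (SD, n = 2 per group), which gave a log2 fold change of -0.63 (adjusted p = 4.16e-06, edgeR quasi-likelihood). The cytoplasmic actins therefore changed in opposite directions, with 8.75 and 9.66 ACTG1 reads per ACTB read in MET+ and 4.10 and 3.67 in MET-KO libraries. ACTA2 made up 0.160% and 0.148% of actin counts in MET+ and 0.655% and 0.566% in MET-KO libraries, while the summed actin level was 6282 ± 30.6 CPM without and 4628 ± 422 CPM with the MET knockout (SD, n = 2 per group). The skeletal actin ACTA1 had at most 2 counts in any library and the cardiac actin ACTC1 had 0 in all 4.

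CALD1, CNN3 and TAGLN, which encode actin-binding proteins of contractile filaments, were all higher in MET-KO cells. CALD1 (ENSG00000122786, chromosome 7, 134744252 to 134970728) encodes caldesmon, which restrains myosin on tropomyosin-coated filaments. It had 535 and 647 counts in the MET+ replicates, against 2329 and 2471 in the MET-KO replicates. Its level rose from 65.5 ± 1.24 CPM to 228 ± 0.577 CPM (SD, n = 2 per group), a 3.48-fold change with a log2 fold change of 1.80 ± 0.10 (SE, adjusted p = 3.06e-17, edgeR quasi-likelihood). CALD1 and ACTB lie on chromosome 7, where the 673 tested genes had a median log2 fold change of 0.50, and CALD1 stood at percentile 88.7 among them.

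CNN3 (ENSG00000117519, chromosome 1, 94896949 to 94927278) encodes the acidic calponin of non-muscle cells. It had 193 and 204 counts in the MET+ replicates, against 960 and 897 in the MET-KO replicates, and its level rose from 22.1 ± 1.69 CPM to 88.4 ± 8.15 CPM (SD, n = 2 per group). The log2 fold change was 2.0 ± 0.12 (SE, adjusted p = 7.58e-16, edgeR quasi-likelihood). Its relative CNN2, a calponin of many cell types, went from 136 ± 1.20 CPM to 216 ± 6.36 CPM (SD, n = 2 per group), which gave a log2 fold change of 0.67 (adjusted p = 1.90e-07, edgeR quasi-likelihood). CNN2 reads per CNN3 read were 5.80 and 6.54 in MET+ and 2.34 and 2.56 in MET-KO libraries. CNN1, the calponin of differentiated smooth muscle, was at 0 counts in all 4 libraries, and SMTN, a smoothelin that binds actin, stayed within its replicate spread, with 40.0 ± 2.77 CPM and 40.8 ± 1.94 CPM (SD, n = 2 per group).

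The transgelins went in opposite directions. TAGLN (ENSG00000149591, chromosome 11, 117199321 to 117204782), an early smooth-muscle marker, had 9 and 14 counts in the MET+ replicates, against 58 and 71 in the MET-KO replicates. Its level rose from 1.26 ± 0.247 CPM to 6.11 ± 0.602 CPM (SD, n = 2 per group), which gave a log2 fold change of 2.25 ± 0.38 (SE, adjusted p = 5.76e-06, edgeR quasi-likelihood). TAGLN shares 446 exonic bases with PCSK7 on the opposite strand, at the 3′ ends of both genes. All 446 lie within the last 1000 exonic bases of coding TAGLN transcripts, where 3′ reads are expected to fall. PCSK7 counts exceeded those of TAGLN, with 143 and 180 in MET+ and 202 and 233 in MET-KO libraries. The log2 fold change of PCSK7 was 0.21 and did not pass the test (adjusted p = 0.288, edgeR quasi-likelihood). The part of PCSK7 reads in the TAGLN counts was not tested.

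TAGLN2 (ENSG00000158710, chromosome 1, 159918107 to 159925732), the transgelin of non-muscle cells, stood at 328.9 and 369.4 CPM in MET+ and at 277.6 and 257.2 CPM in MET-KO libraries. Its means were 349 ± 28.6 CPM and 267 ± 14.4 CPM (SD, n = 2 per group), which gave a log2 fold change of -0.39 ± 0.09 (SE, adjusted p = 0.000652, edgeR quasi-likelihood). TAGLN2 remained the far more abundant transgelin, with 302 and 257 TAGLN2 reads per TAGLN read in MET+ and 48.8 and 39.3 in MET-KO libraries. Over TAGLN, TAGLN2, CNN2 and CNN3 together, TAGLN2 took 67.3% and 69.9% of counts in MET+ and 46.4% and 46.1% in MET-KO libraries, and CNN3 took 4.77% and 3.96% against 15.7% and 14.8%.

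**Figure D3:**
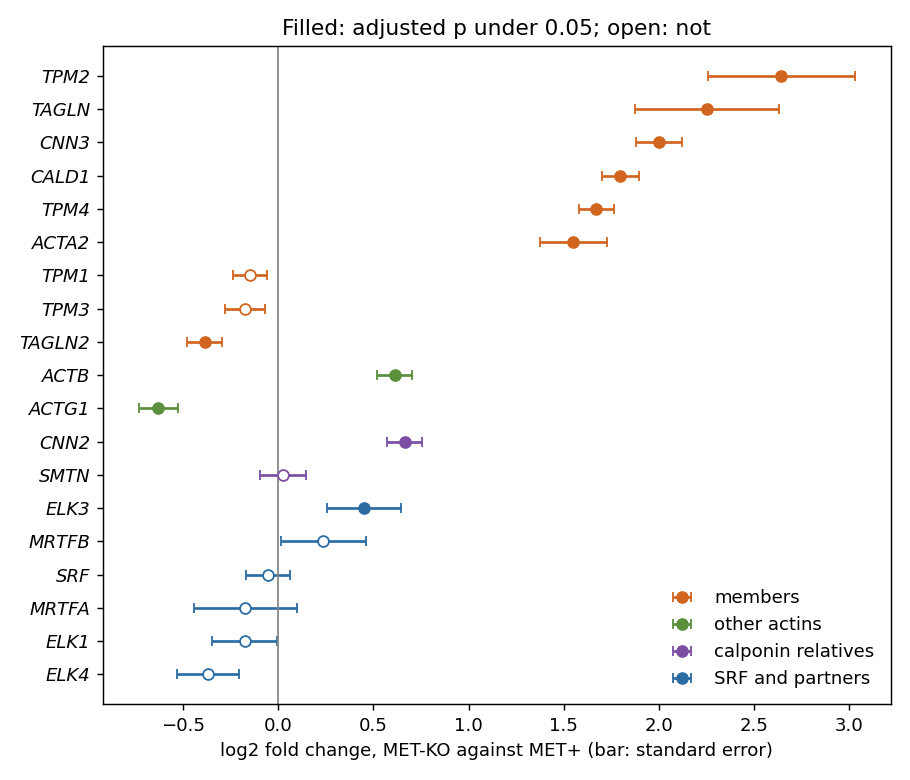
Log2 fold change, MET-KO against MET+, of the 9 tested members and of the other actins, calponin relatives and SRF regulators tested, colored by list. Bars give the standard error derived from the edgeR test, and filled points an adjusted p under 0.05. TPM2, TAGLN, CNN3, CALD1, TPM4 and ACTA2 lie at 1.55 or above, TAGLN2 is the member called as lower, and the open points of TPM1 and TPM3 lie just below 0.

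The order of levels changed with these differences. In MET+ cells the most abundant members were TAGLN2, TPM1 and TPM4, with means of 349, 235.4 and 216.0 CPM, and in MET-KO cells they were TPM4, TAGLN2 and CALD1, with 687.0, 267 and 228 CPM, followed by TPM1 with 212.7 CPM. TPM3 and CALD1 were near each other in MET+ cells, at 74.2 ± 0.872 CPM and 65.5 ± 1.24 CPM (SD, n = 2 per group). The least abundant tested members were TAGLN and TPM2 in both groups, and in each group their libraries overlapped or nearly touched, at 1.03 to 1.44 CPM in MET+ and at 5.69 to 7.06 CPM in MET-KO libraries.

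The genes around each increased member changed less at their median, although FAS and STAMBPL1, which overlap ACTA2, changed as much as ACTA2 itself. Within 5 Mb of each increased member, the median log2 fold change of the tested genes lay between -0.07 around CNN3 and 0.37 around CALD1, whereas the members themselves changed by 1.55 to 2.64. On their chromosomes the 6 increased members stood at percentile 88.7 to 96.2, and TPM1 stood at percentile 67.2 on chromosome 15, whose median was -0.43. TPM1 thus ranked above the middle of a chromosome on which most tested genes were lower in MET-KO cells.

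**Figure D4:**
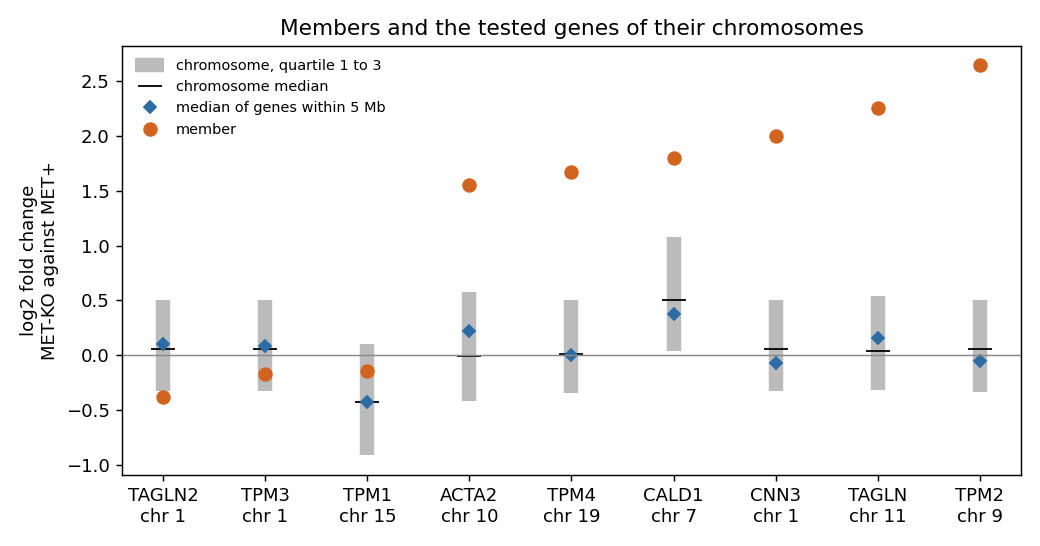
Log2 fold change of each tested member, MET-KO against MET+ (circles), beside the quartiles (gray bars) and median (black lines) of the tested genes of its chromosome and the median of the tested genes within 5 Mb (diamonds). CALD1 is at 1.80 against a median of 0.50 on chromosome 7, and TPM1 is at -0.15 against -0.43 on chromosome 15.

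The regulators of these genes were read from their own transcripts. Of 7 listed SRF regulators, 6 were tested and 1 was called, ELK3, an SRF partner of the ternary complex family, which went from 10.3 ± 0.637 CPM to 14.0 ± 0.451 CPM (SD, n = 2 per group), which gave a log2 fold change of 0.45 (adjusted p = 0.0495, edgeR quasi-likelihood). The ELK3 call was lost in 7 of 11 alternative fits, among them DESeq2 (adjusted p = 0.177) and each fit without 1 library (adjusted p of 0.0508 to 0.182). SRF itself stood at 178.7 and 199.0 CPM in MET+ and at 217.5 and 147.2 CPM in MET-KO libraries, so that the MET-KO values enclosed the MET+ values. Its log2 fold change was -0.05 (adjusted p = 0.727, edgeR quasi-likelihood), and without the first MET-KO library it was -0.36 (adjusted p = 0.00291).

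The coactivators MRTFA, with means of 6.75 and 6.02 CPM in MET+ and MET-KO cells, and MRTFB, with means of 8.16 and 9.66 CPM, did not pass the test (adjusted p = 0.617 and 0.388, edgeR quasi-likelihood). ELK1, another ternary complex factor, had a log2 fold change of -0.18 (adjusted p = 0.398, edgeR quasi-likelihood). ELK4 had one of -0.37 (adjusted p = 0.0552, edgeR quasi-likelihood), which passed without the second MET-KO library, at -0.60 (adjusted p = 0.0128), and with crossed replicate numbers as a block, at -0.38 (adjusted p = 0.0234). MYOCD, the SRF coactivator of smooth and cardiac muscle, was at 0 counts in all 4 libraries.

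Beyond the members, 30 other genes known as MRTF and SRF targets were listed, and 25 were tested. The list includes SRF, ACTB, ACTG1, CNN2 and SMTN, described above. In MET-KO cells 12 were higher and 6 lower, and 7 did not pass, so that 72.0% were called against 54.1% of all tested genes. ANKRD1 and THBS1, 2 of the 12 higher genes, passed the filter on low counts only through the MET-KO libraries. The median log2 fold change of the list was 0.14, against 1.67 for the members. The increased genes were led by ANKRD1, THBS1 and CYR61, which are also known as YAP1 targets and which the study itself named from these samples, so they are not independent evidence of a direction. ANKRD1, a muscle ankyrin-repeat protein, had 0 counts in both MET+ replicates against 261 and 347 counts in the MET-KO libraries, at least 85.8-fold higher against a floor of 3 counts per MET+ library. THBS1, a secreted matrix glycoprotein, had 9 and 4 counts in the MET+ replicates, against 920 and 1146 in the MET-KO replicates, and CYR61, a secreted matricellular protein, rose by a log2 fold change of 6.06 (adjusted p = 8.66e-28, edgeR quasi-likelihood).

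The listed targets that were lower included parts of the contractile machinery itself. PDLIM7, a LIM protein of stress fibers, went from 55.2 ± 8.39 CPM to 21.7 ± 2.37 CPM (SD, n = 2 per group), which gave a log2 fold change of -1.36 (adjusted p = 1.45e-10, edgeR quasi-likelihood). MYH9, the heavy chain of non-muscle myosin IIA, went from 319 ± 1.76 CPM to 174 ± 5.26 CPM (SD, n = 2 per group), which gave a log2 fold change of -0.88 (adjusted p = 4.33e-10, edgeR quasi-likelihood). ACTG1, described above, was the third of the largest decreases.

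Tropomodulins cap the slow-growing end of tropomyosin-coated filaments, and troponins regulate tropomyosin in striated muscle. Of 15 such genes, 5 were tested, and edgeR called 4 as higher and 0 as lower with MET knockout, leaving TMOD3 as the gene that did not pass, where 27.2% of all tested genes were called higher. TMOD3, the tropomodulin of most cells, was the most abundant tropomodulin at 55.2 ± 6.36 CPM without and 60.3 ± 2.03 CPM with the MET knockout (SD, n = 2 per group). TMOD2 had 14 and 26 counts in the MET+ replicates, against 72 and 69 in the MET-KO replicates, a log2 fold change of 1.6 (adjusted p = 0.000137, edgeR quasi-likelihood). TMOD1 had 28 and 21 counts in the MET+ replicates, against 66 and 54 in the MET-KO replicates, a log2 fold change of 1.06 (adjusted p = 0.00844, edgeR quasi-likelihood). The TMOD1 call was lost with DESeq2 (adjusted p = 0.0562) and without the second MET+ library (adjusted p = 0.0901) or the first MET-KO library (adjusted p = 0.138).

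TNNI3, the cardiac troponin I, had 10 and 16 counts in the MET+ replicates, against 31 and 32 in the MET-KO replicates (adjusted p = 0.0436, edgeR quasi-likelihood), and its call was lost in 7 of 11 alternative fits, including each fit without 1 library (adjusted p of 0.0561 to 0.206). TNNT1, the slow skeletal troponin T, which completes the 4 called genes and was named after its value was seen, went from 71.8 ± 6.25 CPM to 108 ± 1.72 CPM (SD, n = 2 per group), which gave a log2 fold change of 0.59 (adjusted p = 7.80e-06, edgeR quasi-likelihood).

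Defining markers of smooth muscle were at or near 0 in all libraries. Of 7 such markers, CNN1 and MYOCD had 0 counts, MYH11, DES, LMOD1 and SYNM had at most 3 counts in any library, and SMTN alone was tested. The summed level of the 7 was 38.8 to 42.1 CPM in MET+ and 39.6 to 42.2 CPM in MET-KO libraries, nearly all of it SMTN. Of 8 fibroblast markers, COL1A2, DCN and FAP were at 0 counts, 2 were tested, and the summed level was 1.64 to 2.18 CPM in MET+ and 3.82 to 4.24 CPM in MET-KO libraries. COL3A1, a fibrillar collagen, had 4 and 5 counts in the MET+ replicates, against 24 and 26 in the MET-KO replicates, and was called higher with a log2 fold change of 2.22 (adjusted p = 0.00109, edgeR quasi-likelihood), while COL1A1, with 10 to 19 counts, did not pass. Both passed the filter only through the MET-KO libraries, and the part of this marker in the increases of the members was not tested.

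The members whose 3′ ends held stretches near-identical to other genes were TPM3, TPM4 and TAGLN2. Within the last 300 bases of coding transcripts, stretches of at least 50 bases with at least 95% identity were found in 3 other genes for TPM3, in 10 for TPM4 and in 1 for TAGLN2, and in no case was the match another member. The genes matching TPM4 included POU5F1 and PPP1CC but not the pseudogene TPM4P1, so these stretches are not copies of TPM4 as a whole. TPM4P1, TAGLN2P1 and CNN3P1 were at 0 counts. TPM3P9, the most counted of 8 TPM3 pseudogenes, was not among the 3 genes matching the end of TPM3. It had 7 and 5 counts in the MET+ replicates and 36 and 34 in the MET-KO replicates, against 609 to 729 counts for TPM3.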

How the data were processed

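RNA of 2 MET+ and 2 MET-KO replicates was sequenced after QuantSeq 3′ library preparation. The deposited values are whole counts per gene, made by the authors without normalization. The submitters' processing notes name bcl2fastq, cutadapt 1.16, FastQC 0.11.7, MultiQC 1.5, STAR 2.5.4a, featureCounts 1.6.2, DESeq2 1.18.1 and GRCh38, and the strand setting is not given in the sources used here. Of 58825 gene rows, 58552 matched GENCODE version 29, and 99 spike-in rows held 0 counts.

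Counts were tested in R 4.3.3 with edgeR 4.0.16 (filterByExpr, TMM, quasi-likelihood test, condition as the single term), with Benjamini-Hochberg adjustment over 13801 genes at 0.05. Standard errors (SE) are the absolute log2 fold change, before shrinkage, over the square root of the F statistic of the test. A count of 0 allows up to 3 counts, 0.292 to 0.356 CPM. Shares have exact Clopper-Pearson 95% intervals. Promoters came from RefSeq (GRCh38.p14), 3′ ends were compared with blastn 2.17.0, and figures used Python 3.11.15 and matplotlib 3.10.9. The fit was also run on simulated counts with the same replicate spread for all genes and far fewer changed genes than were called here. That run does not measure the error of these calls. Members and lists were chosen with earlier results of these data known. Named are all members, MET, the SRF regulators, other actins and calponin relatives, up to 3 called genes with the largest change each way of the MRTF and SRF targets and of tropomodulins and troponins, and the gene nearest to each member in its pattern. Alternatives were DESeq2 size factors, library totals, DESeq2 1.42.0, a minimum of 10 counts in all libraries, omission of the filter, a replicate block, shares without TPM3, and leaving out each library. Replicates differed beyond counting noise (chi-square per degree of freedom 5.45 in MET+ and 4.86 in MET-KO), so all 4 were kept as separate samples.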

Additional observations from a re-analysis of the deposited data

How the results depend on the processing

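The direction and call of each of the 9 tested members held in every alternative that gave a value. With each library left out in turn, the log2 fold change lay between 1.64 and 1.70 for TPM4, 1.78 and 1.81 for CALD1, 1.90 and 2.09 for CNN3, 2.55 and 2.73 for TPM2, 2.08 and 2.47 for TAGLN, 1.34 and 1.74 for ACTA2, and -0.46 and -0.31 for TAGLN2. Requiring at least 10 counts in every library removed TPM2 and TAGLN, leaving 5 called members. Without TPM3 in the total, the share difference was -28.6 percentage points for TPM1 and 28.1 for TPM4, a move that follows from the smaller total. Equal replicate numbers did not deviate together (correlation -0.133 over 9556 genes), and the fit with the replicate block called 7 members and 7055 genes, against 7467 without it. Crossed pairs, chosen after seeing the data, called 7 members and 7737 genes. DESeq2 called 5760 genes. Scaling by library totals shifted the median over all tested genes by 0.10 and turned the sign of SRF, to 0.04, and leaving out 1 library moved SRF between -0.36 and 0.21. Without the second MET-KO library MRTFA was at 0.09 and ELK1 at 0.05, neither past the threshold. ACTG2, with at most 6 counts in a library, had an adjusted p of 0.167 without the filter by edgeR. The list of MRTF and SRF targets had 16 to 19 called genes across the alternatives, the lower call of VCL being lost without the first MET+ library (adjusted p = 0.0518, edgeR).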

Other observations

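The gene whose pattern over the 4 libraries lay nearest to each member was found by the root mean square distance of centered log2 CPM. BZW2 was nearest to TPM4, with a distance of 0.0248 and a log2 fold change of 1.64, and 66 of 9499 candidate genes lay within 0.1. HS3ST3B1 was nearest to CALD1 (distance 0.0215), DPYSL2 to CNN3 (0.0373), HCN2 to ACTA2 (0.0293), RIPK4 to TPM2 (0.0288) and KREMEN1 to TAGLN (0.0384), with 16 to 48 candidates within 0.1. For the members with small changes the match was unspecific, since 1357 candidates lay within 0.1 of TPM1, 1033 of TPM3 and 748 of TAGLN2, whose nearest genes were ZNF219, TK2 and CDH24.

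Of 8 immediate early genes known as targets of SRF with ternary complex factors, 6 were tested. FOSB, a subunit of AP-1, was higher, with 14 and 8 counts in the MET+ replicates, against 42 and 55 in the MET-KO replicates, and passed the filter on low counts only through the latter. EGR1 and IER2 were lower, with log2 fold changes of -1.51 and -0.89 (adjusted p = 5.53e-08 and 8.99e-10, edgeR quasi-likelihood). These genes were named after their values were seen, and the median of the 6 was -0.11. Of 9 markers of colon epithelium, 8 were tested, of which 2 rose and 5 fell with MET knockout, where 54.1% of all tested genes were called. The lower call of KRT18 was lost without the first or the second MET+ library (adjusted p = 0.157 and 0.0828, edgeR), and that of KRT19 without the second MET+ or the second MET-KO library (adjusted p = 0.153 and 0.108, edgeR). CEACAM5 and KRT20 each passed the filter through 1 group, and KRT20 had 0 counts in both MET+ replicates against 27 and 28 counts in the MET-KO libraries.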
